A study of Mus musculus with 4 samples.

Results

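Distal mouse chromosome 4 holds 10 genes with large differences between IL-4-treated macrophages labelled Sema6D-/- and wild type. They were picked by symbol, for the size of that difference, from 23259 genes with a value in each of 4 libraries. In order along the chromosome they are C77080, Marcksl1, Hdac1, Eya3, Hmgn2, Padi4, Fblim1, Gm13157, Plod1 and Clstn1. They span 20.4 Mb, from 129219578 to 149648899 in the mm10 build, in an order taken from the RefSeq annotation of the same assembly, GRCm38. In the libraries labelled Sema6D-/-, 7 of the 10 had higher values and 3 had lower values. Because this contrast chose the genes, their levels and differences are given as a description, with no test.

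The macrophages were grown from bone marrow of C57BL/6 mice aged 7 weeks and exposed to IL-4 for 24 h, a cytokine of alternative activation. There were 2 libraries labelled Sema6D-/-, with the membrane semaphorin gene Sema6d disrupted, and 2 labelled wild type, and cells without IL-4 are not analysed here. Whether the pair of libraries under a label stems from different animals is not given, so each p-value reflects only how far these 4 samples scatter, and that scatter may be technical. Values are deposited FPKM, in which fragments are scaled to transcript length and to the mapped fragments of the library. Sema6d was at 0.106 and 0.315 FPKM in the libraries labelled Sema6D-/-, against 0.166 and 0.389 in those labelled wild type. These values overlap and do not check the genotype, and the sample titles begin with W under Sema6D-/- and with K under wild type. Each direction is therefore that of the libraries as labelled.

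FPKM summed to 563890 and 552107 in the libraries labelled Sema6D-/- and to 527755 and 538679 in those labelled wild type. From the step between low values, the depth was about 8200000 and 8500000 fragments under Sema6D-/- and about 8900000 and 9000000 under wild type. Differences are in log2(FPKM + 1), Sema6D-/- minus wild type, from a limma model over the 10115 genes that averaged 1 FPKM or more. In that model 4.8% of genes were called higher and 4.91% lower at a Benjamini-Hochberg adjusted p under 0.05, 2.23% differed by at least 1 in either direction, and 1.79% did both. All 10 macrophage markers listed for the check were above 1 FPKM in some library, with Csf1r, the receptor that macrophages need to survive, at 511 and 519 FPKM under Sema6D-/- and 545 and 561 under wild type.

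The 10 genes belong to no common pathway. Hdac1 and Hmgn2 act on chromatin, Eya3 and Gm13157 on transcription, Fblim1 and Marcksl1 at the actin skeleton, and Plod1 and Clstn1 in the secretory route, while Padi4 modifies proteins after they are made. Genes that lie close together on a chromosome tend to be inherited together when a mouse line is bred. Some families on this stretch, such as the zinc finger genes around Gm13157 and the peptidylarginine deiminases, lie as clusters of related copies. Reads from such copies, or from processed pseudogenes elsewhere in the genome, can be assigned to the wrong locus.

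Similar copies were looked for among all GENCODE transcripts of other genes, as alignments of at least 150 bases at 90% identity or more. Eya3, Fblim1, Plod1, Clstn1, C77080 and Padi4 had 0 such genes. For Fblim1, the processed pseudogene Gm48839 on chromosome 10 fell just under the cutoff, at 89.4% identity over 395 bases. Hmgn2 had 25, of which 22 are annotated as pseudogenes, Gm13157 had 7, Hdac1 had 4 and Marcksl1 had 2. The coding sequence of Hmgn2 is shown because it cannot be told from that of its copies. All 273 bases, from start to stop codon, are the same in the processed pseudogene Gm10182 on chromosome 9 and in Gm10282 on chromosome 8, so there are no capitals to mark a mismatch.
Hmgn2, Gm10182 and Gm10282: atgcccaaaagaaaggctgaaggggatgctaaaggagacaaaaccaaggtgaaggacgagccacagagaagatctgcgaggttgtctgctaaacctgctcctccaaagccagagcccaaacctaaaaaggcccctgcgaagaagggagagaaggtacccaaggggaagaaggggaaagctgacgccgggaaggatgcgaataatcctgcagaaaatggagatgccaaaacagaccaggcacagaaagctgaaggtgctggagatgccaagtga
For Hdac1, the nearest copy was the processed pseudogene Gm10093 on chromosome 17, with 99.4% identity over 1444 bases and 9 mismatches in the coding part. The 150 bases with the most mismatches, 7, run from base 333 to base 482 of the coding sequence and are shown with each mismatch in capitals.
Hdac1: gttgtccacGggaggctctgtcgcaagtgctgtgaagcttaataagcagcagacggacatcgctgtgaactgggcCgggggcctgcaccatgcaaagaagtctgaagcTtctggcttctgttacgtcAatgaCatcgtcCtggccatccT
Gm10093: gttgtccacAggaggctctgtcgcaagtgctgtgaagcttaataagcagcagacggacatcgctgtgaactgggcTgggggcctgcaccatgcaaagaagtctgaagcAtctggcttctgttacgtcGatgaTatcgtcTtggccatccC
Both sets are GENCODE M21 transcript sequence of the GRCm38 assembly, in the sense direction. Neither Gm10182, Gm10282 nor Gm10093 was found under its symbol in the deposited tables, so no level is given for them.

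Promoter windows from RefSeq (GRCm38.p6), 250 bases before to 50 bases after a start, were found for 9 of the 10 genes, as 13 windows in all. Those of Fblim1, which had the largest higher value, and of Eya3 and Clstn1, which had lower values and no similar copy, are shown to set both directions side by side. Capitals mark the motifs searched on either strand: the palindrome that STAT6 binds after IL-4 (TTC, any 4 bases, then GAA), the TATA box TATAAA, the CCAAT box, and the GC box GGGCGG. Matches that overlap or adjoin form 1 run of capitals, and the first Fblim1 window holds none.
Fblim1, chr4:141606003-141606302, minus strand: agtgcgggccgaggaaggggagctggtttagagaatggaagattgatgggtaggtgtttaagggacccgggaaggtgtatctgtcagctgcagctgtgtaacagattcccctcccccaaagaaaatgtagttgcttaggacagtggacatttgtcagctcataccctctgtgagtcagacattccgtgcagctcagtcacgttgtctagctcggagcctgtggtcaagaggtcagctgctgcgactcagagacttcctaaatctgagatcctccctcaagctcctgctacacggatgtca
Fblim1, chr4:141599949-141600248, minus strand: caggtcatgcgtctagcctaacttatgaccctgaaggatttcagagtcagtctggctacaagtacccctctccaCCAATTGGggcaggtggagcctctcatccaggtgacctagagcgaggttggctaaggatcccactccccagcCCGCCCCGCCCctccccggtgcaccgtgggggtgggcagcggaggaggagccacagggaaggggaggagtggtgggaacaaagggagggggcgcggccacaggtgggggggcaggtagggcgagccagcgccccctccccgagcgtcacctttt
Eya3, chr4:132638796-132639095, plus strand: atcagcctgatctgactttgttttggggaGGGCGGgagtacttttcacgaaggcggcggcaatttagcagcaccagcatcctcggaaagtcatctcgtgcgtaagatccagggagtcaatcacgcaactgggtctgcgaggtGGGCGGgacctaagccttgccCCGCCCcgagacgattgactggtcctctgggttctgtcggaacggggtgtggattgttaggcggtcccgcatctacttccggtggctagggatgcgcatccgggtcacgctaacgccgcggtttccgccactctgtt
Clstn1, chr4:149586218-149586517, plus strand: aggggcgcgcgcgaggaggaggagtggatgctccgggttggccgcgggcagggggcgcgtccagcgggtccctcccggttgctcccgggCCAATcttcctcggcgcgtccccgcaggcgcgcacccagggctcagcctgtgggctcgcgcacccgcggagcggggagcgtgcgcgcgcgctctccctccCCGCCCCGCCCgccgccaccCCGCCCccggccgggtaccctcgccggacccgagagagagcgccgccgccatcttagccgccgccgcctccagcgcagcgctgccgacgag
The STAT6 palindrome was in 0 of the 13 windows, against 6.95% of 32851 windows of the same length over all genes. GGGCGG was in 10 of the 13, against 35.7% of all windows, and CCAAT in 6, against 37.4%. All windows had a median of 7 CG dinucleotides, against 8 and 13 for Fblim1, 25 for Eya3 and 48 for Clstn1. They were not matched to the 13 for this or for expression, so these shares do not set the 10 genes apart. TATAAA was found for Padi4 and Plod1, and in 13.6% of all windows. The Plod1 match lay on the opposite strand, at the end of its window far from the start. Position was not part of the search, so a match need not be a working TATA box. In these windows the genes with higher and lower values shared GGGCGG: Fblim1 had it in 1 of its windows, and Eya3 and Clstn1 in theirs.

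Hdac1 encodes a histone deacetylase of the Sin3, NuRD and CoREST complexes, which remove acetyl groups from histone tails. Hdac1 (chromosome 4, 129516104 to 129542646, minus strand) was at 4.87 and 6.86 FPKM in the libraries labelled Sema6D-/-, against 1.48 and 1.73 in those labelled wild type. Both Sema6D-/- libraries lay above both wild type libraries, 3.65-fold higher by the means, with a difference of 1.38 ± 0.17 (SE). This was the smallest difference of the 10. Its closest expressed relative, Hdac2, stood at 28.5 and 29.0 FPKM under Sema6D-/- and 28.8 and 29.1 under wild type (adjusted p = 0.937), so the deposited Hdac2 level was above that of Hdac1 in every library. Read sharing with pseudogenes leaves the Hdac1 level uncertain, and its part in the difference was not tested. Of 21 tested members of the deacetylase complexes, 0 were called higher and 1 lower by limma, and 2 had an unadjusted p under 0.05. The member called lower was Sap30, a Sin3 subunit, at 28.3 and 32.8 FPKM under Sema6D-/- and 40.0 and 39.9 under wild type (adjusted p = 0.0423). Its call was lost when any 1 of the 4 libraries was left out (highest adjusted p = 0.158).

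Hmgn2 encodes a small protein that binds nucleosomes and loosens chromatin. Hmgn2 (133964739 to 133967991, minus strand) was at 17.7 and 17.6 FPKM under Sema6D-/- and at 0.288 and 0.752 under wild type. The wild type values equal about 3.3 and 8.6 fragments, against about 180 and 190 in the Sema6D-/- libraries. The ratio of the means was 33.8, with a 95% interval of 18.9 to 65.2 for the ratio of fragments, which covers counting error only. Hmgn1, of the same family, stood at 51.6 and 51.2 FPKM under Sema6D-/- and 50.5 and 50.6 under wild type (adjusted p = 0.783). Of 6 tested nucleosome-binding and high mobility group genes, limma called 0 in either direction, and 2 had an unadjusted p under 0.05. Without wild type replicate 2, 1 of the 6 was called higher. The identical coding copies shown above mean that the Hmgn2 level depends on how multi-mapping fragments were handled, which is not given in the sources used here.

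Eya3 encodes a transcriptional coactivator of sine oculis homeobox proteins that is also a tyrosine phosphatase. Eya3 (132639025 to 132724765, plus strand) was at 21.5 and 21.6 FPKM under Sema6D-/- and at 80.8 and 82.1 under wild type. The 2 libraries of each label nearly coincided, and the Sema6D-/- level was lower by 3.78-fold, a difference of -1.87 ± 0.047 (SE). These levels equal about 910 to 950 fragments under Sema6D-/- and 3700 to 3900 under wild type, the best covered of the 10 genes under wild type. The related genes Eya1 and Eya4 stood at 2.90 and 3.79 and at 1.47 and 1.34 FPKM under Sema6D-/-, against 3.56 and 3.46 and 1.34 and 1.54 under wild type. Limma called 0 of these 2, the tested ones of 9 listed Eyes absent, sine oculis homeobox and Dachshund genes, and 0 had an unadjusted p under 0.05.

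Gm13157, named Zfp984 in RefSeq, is a zinc finger protein gene in a cluster of close relatives. In GENCODE the long noncoding RNA gene Gm20707 (147782319 to 147809840) overlaps it on the same strand. Gm20707 was not found in the deposited values, and its part in the Gm13157 level was not tested. Gm13157 (147753974 to 147812229, minus strand) was at 12.6 and 11.7 FPKM under Sema6D-/- and at 0.199 and 0.351 under wild type. Under wild type that is about 4.9 and 8.7 fragments, and the ratio of the means was 44.2 (95% interval 25.2 to 78.5, counting error only). The closest relative, Gm13212, aligned at 94.6% identity over 1849 bases and stood at 2.501 and 3.803 FPKM under Sema6D-/-, against 2.22 and 2.78 under wild type. Within 1 Mb, the zinc finger gene Zfp933 stood at 2.91 and 3.28 FPKM under Sema6D-/- and 3.51 and 3.16 under wild type (adjusted p = 0.702). Gm13139 was listed at 1.06 and 0 FPKM under Sema6D-/- and at 0.00407 and 0.000631 under wild type, and Gm13154 at 0 in both Sema6D-/- libraries and at 0.538 and 0.676 under wild type. Another zinc finger gene, Gm13251 (Zfp992 in RefSeq), was the nearest tested gene before Gm13157. With both wild type values under 1 FPKM, Gm13251 passed the filter of 1 FPKM through the Sema6D-/- libraries alone. It was called higher, at 2.68 and 3.11 FPKM under Sema6D-/- and 0.697 and 0.503 under wild type (difference 1.28 ± 0.14, adjusted p = 0.00876), a call lost without either Sema6D-/- library (highest adjusted p = 0.0545).

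Fblim1 encodes migfilin, a LIM-domain adaptor that links filamin to kindlin at integrin adhesions. Fblim1 (141576062 to 141606052, minus strand) was at 67.9 and 64.2 FPKM under Sema6D-/- and at 3.42 and 2.75 under wild type. Its Sema6D-/- values were the highest of the 10 genes, and the difference of 4.04 ± 0.096 (SE), 21.4-fold by the means, was the largest. Each library had fragments enough to measure it, about 1700 in each under Sema6D-/- and 95 and 77 under wild type. The filamin gene Flna stood at 224 and 233 FPKM under Sema6D-/- and 202 and 196 under wild type (adjusted p = 0.0572), and Fermt3, the kindlin of blood cells, at 144 and 137 under Sema6D-/- against 139 and 139 under wild type (adjusted p = 0.853). Of 13 tested adhesion partners 1 was called higher and 1 lower. Rsu1, of the integrin-linked kinase complex, was higher at 74.6 and 71.0 FPKM under Sema6D-/- against 58.1 and 59.0 under wild type (adjusted p = 0.0216), a call that no fit with 3 libraries kept (adjusted p up to 0.145). Parvg, a parvin of blood cells, was lower at 14.3 and 16.0 FPKM under Sema6D-/- against 27.1 and 21.7 under wild type (adjusted p = 0.031), a call kept only in the fit that left out wild type replicate 2 (adjusted p up to 0.202 in the others).

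Marcksl1 encodes an actin- and calmodulin-binding substrate of protein kinase C. Marcksl1 (129513581 to 129515981, plus strand) was at 2.76 and 3.05 FPKM under Sema6D-/- and at 15.7 and 10.9 under wild type. The wild type libraries differed by several FPKM, and even the lower of them lay above both Sema6D-/- libraries, with a difference of -1.86 ± 0.17 (SE), 4.59-fold lower under Sema6D-/-. Marcks, the other member of the family, stood at 76.1 and 69.4 FPKM under Sema6D-/- and 68.3 and 71.4 under wild type (adjusted p = 0.634). Marcksl1 and Hdac1 face each other tail to tail with 122 bases between their annotated ends, and their values went in opposite directions. The library kit keeps strand, per the labels' protocols, but the strand setting of the quantification is not given in the sources used here. Of 6 tested partners, limma called Calm2, a calmodulin gene, higher (383 and 373 FPKM under Sema6D-/- against 291 and 304 under wild type, adjusted p = 0.0127) and Prkcd, a protein kinase C gene, lower (360 and 362 FPKM under Sema6D-/- against 439 and 452 under wild type, adjusted p = 0.0147). Calm2 lost its call without either Sema6D-/- library (highest adjusted p = 0.115), and Prkcd without either of these or wild type replicate 2 (highest adjusted p = 0.126).

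Plod1 encodes a lysyl hydroxylase that prepares collagen for cross-linking in the endoplasmic reticulum. Plod1 (147909753 to 147936776, minus strand) was at 34.6 and 32.7 FPKM under Sema6D-/- and at 12.2 and 11.8 under wild type. The labels were well apart, 2.81-fold by the means, with a difference of 1.42 ± 0.062 (SE). Plod3, a related hydroxylase, stood at 44.0 and 43.8 FPKM under Sema6D-/- and 45.8 and 44.8 under wild type (adjusted p = 0.624), and Plod2 was at most at about 0.2 FPKM in any library. Of 9 tested collagen-modifying genes 1 was called higher, the prolyl hydroxylase gene P4ha2, at 2.39 and 2.31 FPKM under Sema6D-/- and 1.07 and 1.19 under wild type (adjusted p = 0.0335). It lost that call without any 1 library (highest adjusted p = 0.145).

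Clstn1 encodes calsyntenin-1, a membrane protein that couples vesicles to kinesin light chains. Clstn1 (149585111 to 149648899, plus strand) was at 1.56 and 1.36 FPKM under Sema6D-/- and at 13.2 and 13.1 under wild type. Every library had over 50 fragments, and the difference was -2.52 ± 0.091 (SE), 9.0-fold lower under Sema6D-/-. It was the largest lower difference of the 10. Of its relatives, Clstn2 was listed at 0 in all 4 libraries and Clstn3 at 0.0290 and 0.0279 FPKM under Sema6D-/- and 0.0265 and 0 under wild type. Of 8 tested calsyntenin adaptors limma called 0, and 3 had an unadjusted p under 0.05, in both directions. The kinesin light chain gene Klc4 stood at 41.5 and 38.8 FPKM under Sema6D-/- and 30.3 and 33.9 under wild type (difference 0.32, adjusted p = 0.0588). Klc2, another light chain gene, stood at 5.13 and 5.62 FPKM under Sema6D-/- and 6.90 and 7.06 under wild type (difference -0.33, adjusted p = 0.0811). The amyloid precursor gene App had a difference of 0.14 (adjusted p = 0.116).

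Padi4 encodes a peptidylarginine deiminase that converts arginine to citrulline in histones and is best known from neutrophils. Padi4 (140745508 to 140774239, minus strand) was at 2.94 and 2.18 FPKM under Sema6D-/- and at 0.207 and 0.162 under wild type. The wild type values equal about 4.3 and 3.4 fragments, and the ratio of the means was 13.9 (95% interval 6.46 to 31.5, counting error only). Padi2, a relative from the same cluster, was called higher, at 11.8 and 11.9 FPKM under Sema6D-/- and 5.97 and 4.69 under wild type (difference 1.03 ± 0.11, adjusted p = 0.00871), and lost that call without either Sema6D-/- library (highest adjusted p = 0.0949). Padi1, Padi3 and Padi6 were under 0.2 FPKM throughout. Most of the tested neutrophil markers were higher under Sema6D-/-. Of 14 found of 15 listed, 11 were tested, and limma called 6 higher. It called 1 lower, Csf3r, on chromosome 4 at 126023441. These calls made 63.6% of those tested, against 9.72% of all tested genes. Of the 11, 10 had an unadjusted p under 0.05, as had 17 of 66 tested genes over the partner lists of the 10 genes. The share of all tested genes under that unadjusted threshold is not given here. The 4 that did not pass were Camp, Elane, Retnlg and the collagenase gene Mmp8. Their differences were 1.53, 0.945, 0.925 and -0.06 (adjusted p = 0.0995, 0.0531, 0.0644 and 0.687). Elane and Retnlg, under 1 FPKM in both wild type libraries, were tested through the Sema6D-/- libraries alone. The 14 found markers summed to 804 and 664 FPKM under Sema6D-/- and 265 and 255 under wild type. Cxcr2 was under 1 FPKM in every library. The 11 tested had a median difference of 1.53. With 1 library left out, 4 to 7 of them were called higher and 1 lower. In bulk RNA, more cells of a type and more RNA per cell cannot be told apart. The part of neutrophils in the Padi4 value was not tested.

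C77080 is a protein-coding gene with the RefSeq synonym mKIAA1522. C77080 (129219578 to 129261404, minus strand) was at 6.94 and 5.99 FPKM under Sema6D-/- and at 0.0606 and 0.0395 under wild type. The wild type values rest on about 2.8 and 1.9 fragments, against about 290 and 260 in the Sema6D-/- libraries. The ratio of the means was 129, with a 95% interval of 51.3 to 372 for counting error only. On the log2(FPKM + 1) scale the difference was 2.83 ± 0.13 (SE), and this scale understates the change of so low a gene. The last 30 bases of C77080 overlap Yars on the opposite strand in GENCODE, and Yars stood at 24.2 and 22.2 FPKM under Sema6D-/- and 18.0 and 15.9 under wild type.

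**Figure D1:**
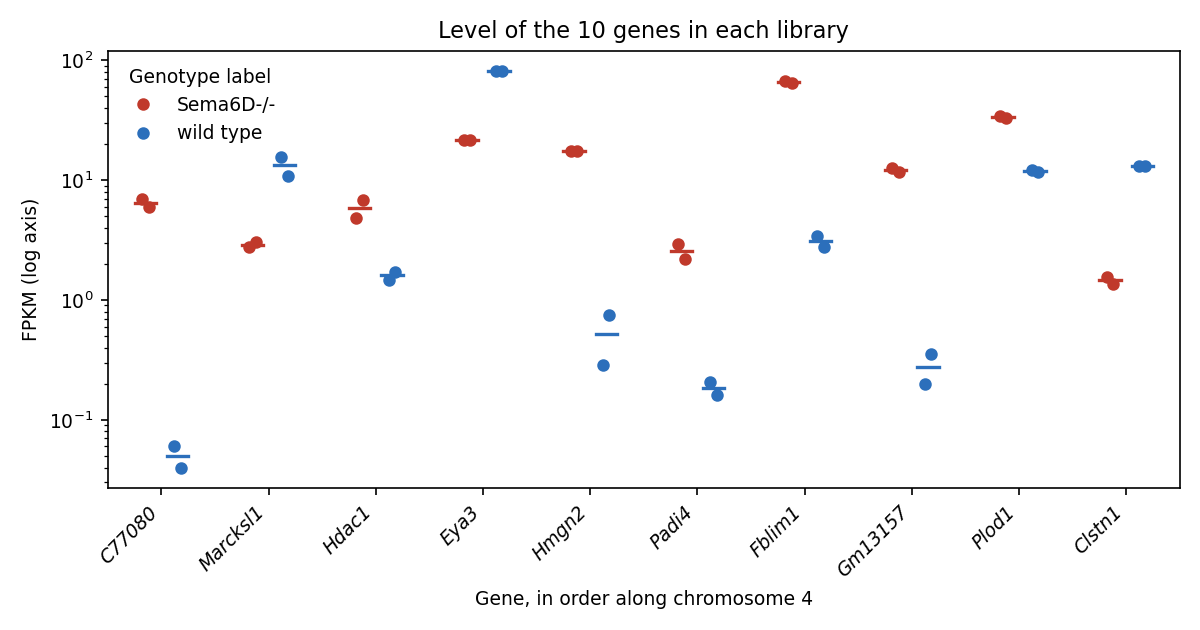
FPKM of each of the 10 genes on a log axis, with 1 point per library and a bar at the mean of the 2 libraries; Sema6D-/- stands left of wild type for each gene. Fblim1 reaches 67.9 FPKM under Sema6D-/- against at most 3.42 under wild type, and Marcksl1, Eya3 and Clstn1 run the other way.

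In none of the 10 genes did the labels overlap. That alone sets them little apart, since 56.2% of tested genes had labels that did not overlap. All 10 passed the filter of 1 FPKM, but C77080, Hmgn2, Padi4 and Gm13157 passed through the Sema6D-/- libraries alone, with both wild type values under 1 FPKM. All 10 differed by at least 1, against 2.23% of all tested genes, and their choice fixes this count. Just outside the choice, 3 other genes of the stretch had larger differences than Hdac1, namely Snora44, Snhg3 and Pdpn, among 119 such tested genes over the genome. Genes without similar copies at the 90% cutoff showed both directions, with Fblim1, Plod1, Padi4 and C77080 higher and Eya3 and Clstn1 lower under Sema6D-/-.

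Markers of stromal cells, which make collagen and use Plod1, were low. Summed over 9 markers they came to 9.36 and 6.63 FPKM under Sema6D-/- and 7.27 and 14.2 under wild type, with Col3a1, Pdgfra, Pdgfrb, Lum and Thy1 under 1 FPKM in every library. By limma 0 of the 4 tested were called, with 0 at an unadjusted p under 0.05, and 1 was called lower without wild type replicate 1. Each listed lymphocyte, erythroid and endothelial marker was under 1 FPKM in every library, with Ncr1, a natural killer cell receptor gene, listed at 0 in all of them. Of 10 macrophage markers 1 was called higher and 4 lower, and with 1 library left out 0 to 2 were higher and 1 to 4 lower. Of the 2 tested mast cell or basophil markers 2 were called higher, but 0 without Sema6D-/- replicate 1 and 1 without either wild type library. Their list summed to 10.7 and 6.34 FPKM under Sema6D-/- and 1.87 and 1.23 under wild type. Of 2 tested dendritic cell markers Itgax was called lower, a call lost without either Sema6D-/- library, and that list summed to 306 and 321 FPKM under Sema6D-/- and 404 and 410 under wild type. In the main limma fit the called share was 50% of the 10 macrophage markers, against 9.72% of all tested genes. It was 100% of the 2 tested mast cell or basophil markers and 50% of the 2 dendritic cell markers. The 2 mast cell or basophil markers were Mcpt8, at 0.319 and 0.156 FPKM under wild type, and Prss34, at 0.898 and 0.683. Both passed the filter of 1 FPKM through the Sema6D-/- libraries alone, which favours a call as higher. The macrophage marker C1qa, called lower (adjusted p = 0.0226), lies within the stretch of chromosome 4 itself, at 136895916. The part of other cells in the 10 differences was not tested.

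Next to the 10 genes, the nearest tested gene on either side by start position gave 18 neighbours. That these differed less than the 10 is fixed by the choice of the 10. Of the 18, 5 were called higher and 2 lower, which is 38.9%, against 9.72% of all tested genes. The median absolute difference was 0.23, against 0.11 over all tested genes. Eif3i, a translation initiation gene next to Hdac1, stood at 106 and 105 FPKM under Sema6D-/- and 106 and 108 under wild type (adjusted p = 0.819). Dhdds, whose start lies 4289 bases from that of Hmgn2, was at 19.03 and 18.4 FPKM under Sema6D-/- against 17.0 and 15.7 under wild type (adjusted p = 0.168). Spen and Plekhm2, on either side of Fblim1, had differences of 0.17 and 0.19 (adjusted p = 0.2 and 0.0866). Ctnnbip1, next to Clstn1, was called lower as Clstn1 had a lower value, at 6.57 and 6.82 FPKM under Sema6D-/- and 10.2 and 9.39 under wild type (adjusted p = 0.0235). Ptafr, next to Eya3, was called higher although Eya3 had a lower value, at 106 and 102 FPKM under Sema6D-/- against 86.3 and 88.4 under wild type (adjusted p = 0.0324). Yars and Rcc2 were called higher (adjusted p = 0.0366 and 0.0371), as were Padi2 and Gm13251, and Rps19-ps3 was called lower (adjusted p = 0.0489). Of these, Gm13251 passed the filter through the Sema6D-/- libraries alone. Without either Sema6D-/- library limma called 0 of the 18, and without wild type replicate 1 or 2 it called 3 and 2, all higher: Padi2 and Gm13251 in both fits, and Yars in the first.

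**Figure D2:**
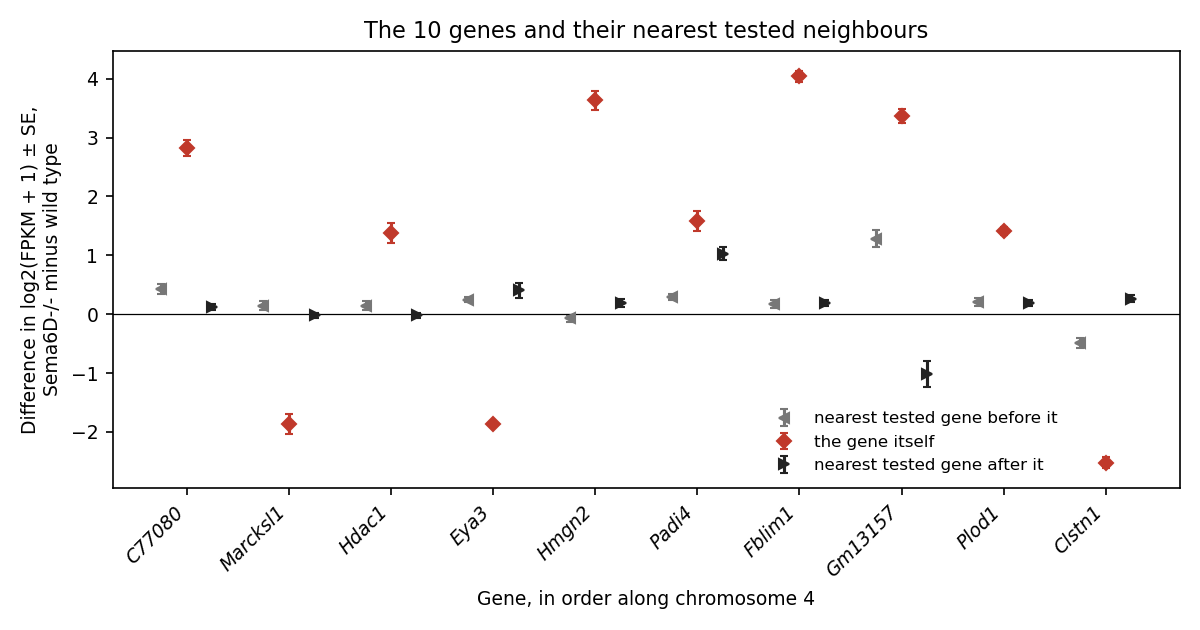
Difference in log2(FPKM + 1), Sema6D-/- minus wild type, with its SE, for each of the 10 genes and for the nearest tested gene before and after it. Most neighbours lie near 0; the exceptions past 1 are Gm13251 and Rps19-ps3 beside Gm13157 and Padi2 beside Padi4.

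Over all 8 partner lists together, 4 of 66 tested genes were called higher and 3 lower, or 10.6%, against 9.72% of all tested genes. Their median difference was 0.004, against 0.003 over all tested genes. Of the 66, 17 had an unadjusted p under 0.05, and the same share over all tested genes is not given here. Apart from the list in which Padi2 alone was tested, list medians ran from -0.04 for the Eyes absent list to 0.18 for the nucleosome-binding list.

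Other genes of the stretch were called in a larger share than genes in general. From the start of C77080 to the end of Clstn1 the tables hold 352 other genes, of which 171 were tested. Of these, 25 were called higher and 10 lower, or 20.5%, against 9.72% of all tested genes. The rest of chromosome 4 had 12 higher and 21 lower of 438, or 7.53%. A stretch of the same length centred on Sema6d on chromosome 2 had 17 higher and 7 lower of 149, or 16.1%. A difference of at least 1 was found for 9 of the 171 other genes (5.26%), for 0.913% of the rest of chromosome 4 and for 3.36% around Sema6d. The 9 included Snora44, listed above 0 in Sema6D-/- replicate 1 alone, and Rps19-ps3 and 1700029I01Rik, which carry pseudogene names in RefSeq. Pdpn, Gm13251, 1700029I01Rik and Sfn, also among the 9, were under 1 FPKM in both wild type libraries. They passed the filter through the Sema6D-/- libraries alone. The median difference was 0.06 in the stretch without the 10 genes. The end points were set by the 10 genes, so these shares are a description. Leaving out 1 library lowered all counts: the stretch had 12.3% called without wild type replicate 1, 14.0% without wild type replicate 2, 5.85% without Sema6D-/- replicate 1 and 6.43% without Sema6D-/- replicate 2. All tested genes then had 5.4%, 5.3%, 1.57% and 2.73%. The stretch around Sema6d had 10.1%, 10.1%, 2.68% and 4.03%, and the rest of chromosome 4 had 4.57%, 4.11%, 1.83% and 2.28%.

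**Figure D3:**
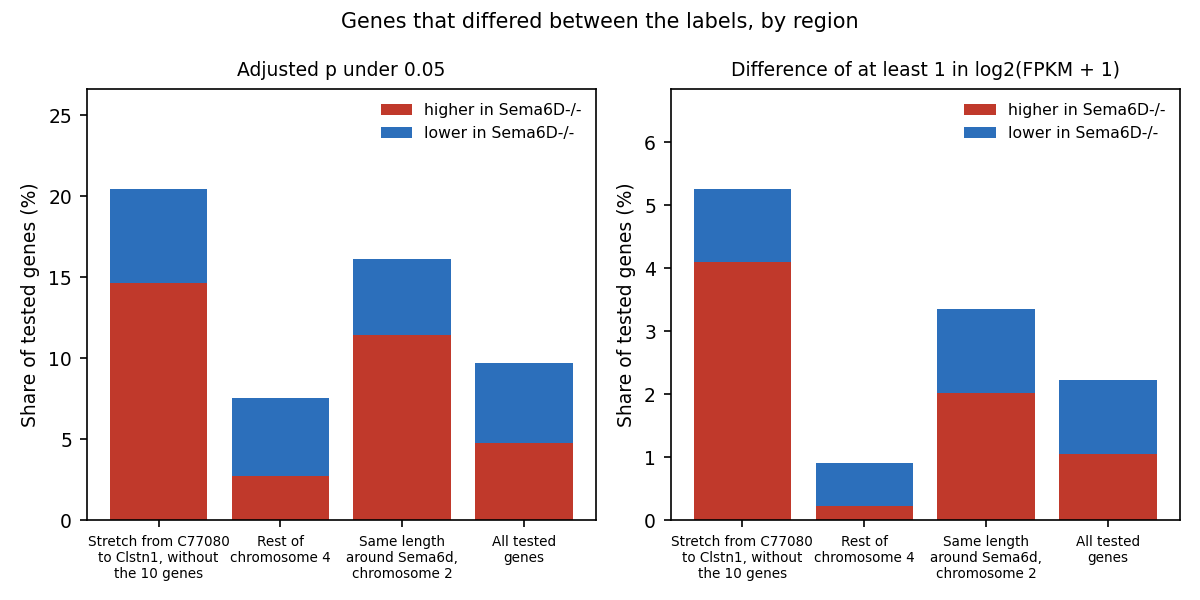
Share of tested genes that differed between the labels in 4 regions, at an adjusted p under 0.05 (left) and by at least 1 in log2(FPKM + 1) (right), stacked by direction. The stretch without the 10 genes has 20.5% and 5.26%, against 9.72% and 2.23% of all tested genes. The 5.26% includes Snora44, listed above 0 in Sema6D-/- replicate 1 alone.

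The share of large differences varied along the stretch, with few such genes in any bin. In bins of 5 Mb with at least 20 tested genes, the bins at 140 to 145 and 145 to 150 Mb had the highest shares of differences of at least 1 among 177 bins, 16.7% and 15.8%, which the choice of the 10 genes raises. Without the 10 genes these bins had 9.09% of 22 genes and 8.57% of 35 genes, and ranked 9 and 13. The bin at 130 to 135 Mb had 6.45% without them, and the bins at 125 to 130 and 135 to 140 Mb had 0 of 47 and 0 of 44. At an adjusted p under 0.05, the last 2 bins had 16.0% and 15.9% called, against 9.72% of all tested genes. The 16.0% includes 3 of the 10 genes. Past the stretch, at 150 to 155 Mb, 0 of 24 genes differed by at least 1 and 1 was called lower. By chromosome, chromosome 4 had 3.72% of genes with a difference of at least 1, after chromosomes 14 and 17 with 4.67% and 4.27%, and 2.13% without the 10 genes.

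**Figure D4:**
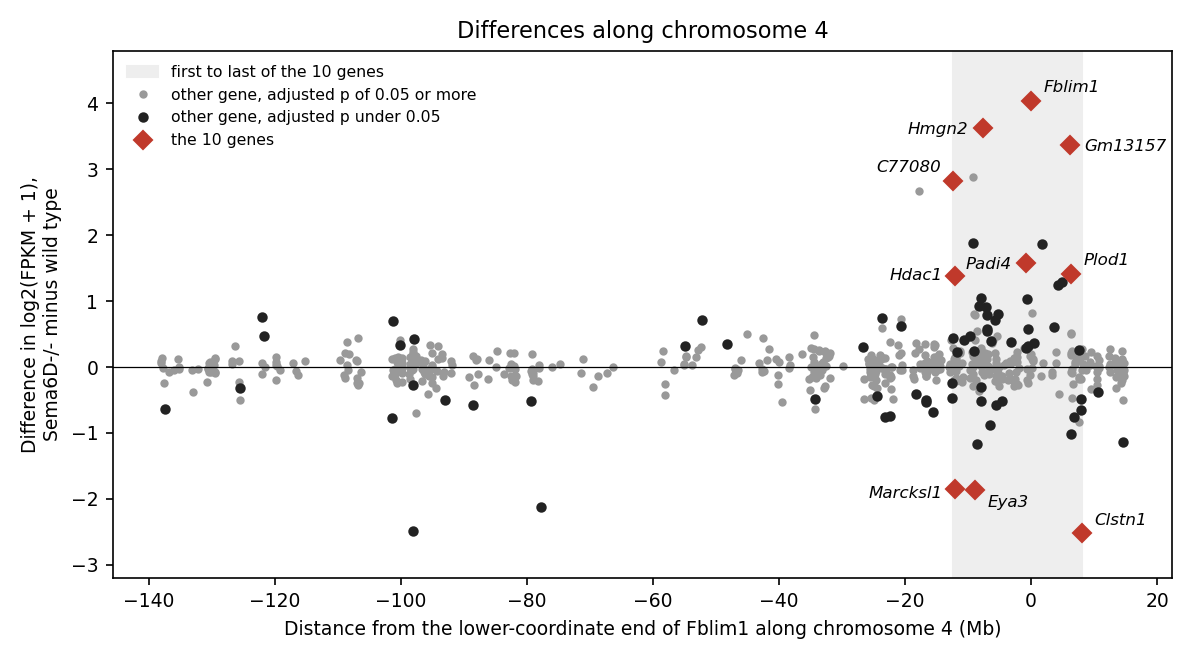
Difference in log2(FPKM + 1), Sema6D-/- minus wild type, of each tested gene of chromosome 4 against its distance in Mb from Fblim1. The 10 genes (diamonds) range from -2.52 for Clstn1 to 4.04 for Fblim1, with called and uncalled genes between them.

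The other genes of the stretch with the largest differences went in both directions. Pdpn, which encodes the membrane glycoprotein podoplanin, was at 4.58 and 4.62 FPKM under Sema6D-/- and 0.515 and 0.567 under wild type (difference 1.86 ± 0.12, adjusted p = 0.00184). Snhg3, a small nucleolar RNA host gene, was at 38.0 and 43.1 FPKM under Sema6D-/- against 9.67 and 10.7 under wild type (difference 1.89 ± 0.087, adjusted p = 8.36e-04). Snora44, the small nucleolar RNA with the largest difference, was at 53.4 FPKM in Sema6D-/- replicate 1 and listed at 0 in the other 3 libraries, and did not pass (adjusted p = 0.377). Fgr, a Src-family kinase of myeloid cells, fell to 3.16 and 3.15 FPKM under Sema6D-/-, against 8.18 and 8.53 under wild type (adjusted p = 0.00275). Runx3, a transcription factor of leukocytes, fell to 0.478 and 0.547 FPKM under Sema6D-/-, against 2.08 and 1.52 under wild type (adjusted p = 0.0317). With both Sema6D-/- values under 1 FPKM, Runx3 passed the filter through the wild type libraries alone. 1700029I01Rik (adjusted p = 0.00876), Sfn (0.04), Map3k6 (0.0256) and Pafah2 (0.0235) were called higher, with differences of 1.247, 1.05, 0.92 and 0.90. Under wild type, 1700029I01Rik, named Znf41-ps in RefSeq, was at 0.275 and 0.315 FPKM, against 2.01 and 2.14 under Sema6D-/-. Sfn was at 0.716 and 0.840 and Map3k6 at 0.536 and 0.715 under wild type. Like Pdpn, these genes under 1 FPKM in both wild type libraries passed the filter through the Sema6D-/- libraries alone. Fgr, Pdpn, Snhg3 and 1700029I01Rik kept their calls with any 1 library left out, though Pdpn and Snhg3 lost theirs when genes were not filtered on level (adjusted p = 0.0535 and 0.0679). Runx3 kept it only when wild type replicate 2 was left out (adjusted p up to 0.146 otherwise). Pafah2 lost its call when either Sema6D-/- library was left out (adjusted p up to 0.153). Sfn lost its call when either wild type library or Sema6D-/- replicate 2 was left out (adjusted p up to 0.117), and Map3k6 lost its call whichever library was left out (adjusted p up to 0.107).

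The labels give the strain of all 4 libraries as C57BL/6 and say nothing of how the Sema6D-/- line was made or bred. Gene-level FPKM hold no sequence variants. Whether the stretch came from another strain in 1 of the groups was thus not tested. Such an origin and the loss of Sema6D would both follow the genotype labels, and with these libraries they cannot be told apart.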

How the data were processed

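RNA from 4 macrophage libraries was analysed, 2 for each genotype label. The deposited values are FPKM per gene symbol, normalized between libraries with Cuffnorm 2.2.1, after TopHat2 2.0.13, Bowtie2 2.2.3 and SAMtools 0.1.19 on mm10, per the submitters' processing notes. The gene annotation, strand setting and treatment of multi-mapping fragments are not stated in any source used here. Of 23284 symbols, 25 had no value in any library. Positions came from RefSeq (GRCm38.p6), in which 23015 symbols were found.

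Differences were fitted with limma 3.58.1 in R 4.3.3 (lmFit, eBayes with intensity trend, two-sided) on log2(FPKM + 1), a scale that understates changes of low genes, for genes that averaged 1 FPKM or more. Benjamini-Hochberg adjustment covered all tested genes. The fit was checked on simulated data with independent normal scatter on the log scale. That cannot check values of few fragments, multi-mapping fragments or replicates from the same animal. Similar transcripts were found with blastn 2.17.0 in GENCODE M21, from the best-scoring alignment to each other gene. Fragment numbers are estimates, FPKM times the longest coding transcript's length over the step between low values; their 95% intervals are exact binomial and cover counting error only.

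The 10 genes and all gene lists were chosen with earlier results of these data known. Other named genes are the nearest tested neighbours, the closest relatives, the 12 largest differences of the stretch, members of the partner lists and marker lists. Other family members and neighbours given with values were added for context.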

Additional observations from a re-analysis of the deposited data

How the results depend on the processing

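The differences of the 10 genes kept their direction in all 127 pairings of a gene with an alternative fit, and 23 moved by more than the spread between replicates, nearly all with another pseudocount: for Fblim1 the difference ranged from 3.14 to 4.39, for C77080 from 1.18 to 5.45 and for Padi4 from 0.543 to 3.22. With 1 library left out, called genes numbered 72 to 276 higher and 87 to 290 lower over all genes, 7 to 19 higher and 2 to 7 lower among the other genes of the stretch, and 0 to 3 higher and 0 to 1 lower among the partner genes (main counts 4 and 3). Without a filter on low values, 115 were higher and 99 lower over all genes, 5 and 4 in the stretch, and 0 and 0 among partners, with 23259 genes tested. eBayes without trend gave 261 higher and 327 lower over all genes and 0 lower partners, and robust estimation gave 7 higher partners. Extending the stretch by 5 Mb at each side gave 16 lower genes. The share called was higher in the stretch than over all genes in each of the 13 alternative fits.

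With the replicate number of the titles as a block, 300 genes were higher over all, 6 were lower in the stretch, and 2 partners were higher and 1 lower. The numbers gave no sign of pairing (correlation of same-numbered deviations -0.018). For the 47 genes outside the 10 that the naming rule picked, not all of which are printed, 599 pairings of a gene with a fit gave 0 reversed calls, 97 lost calls and 6 gained calls. With about 8200000 to 9000000 fragments a library, genes under 1 FPKM rest on few fragments.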
